A study of Mus musculus with 18 samples.

Results

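Cells of the murine lung cancer line ED1SQ4 that had a 4N DNA content after CYC065 treatment were compared with cells of the same culture condition that had a 2N DNA content. The members are the 6 samples titled as CYC065 treated 4N and CYC065 treated 2N, 3 of each, of 18 samples in all. ED1SQ4 was derived from a lung cancer of a mouse carrying a cyclin E transgene. CYC065 (fadraciclib) inhibits CDK2 and CDK9 and was given at 0.5 μM for 72 hours, after which live cells were stained with a DNA dye and sorted into diploid (2N) and polyploid (4N) populations. The series also holds vehicle-treated 2N and 4N cells, used here for reference, and unsorted cells of both treatments, which are not used here. All groups are of this 1 line and share its cyclin E transgene. A gate on DNA content cannot separate a polyploid cell from a cell of the diploid cycle that has copied its DNA and stands in G2 or mitosis, so the 4N library may hold both.

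The 3 samples of a group carry 1 library number and part numbers in their labels. Over genes with whole counts, they differed by no more than sampling noise, with a chi-square per degree of freedom of 1.00 among the 3 CYC065 2N samples and of 1.00 among the 3 CYC065 4N samples. They were therefore summed and counted as 1 library per group, and n is 1 on each side of every comparison. Ratios are given with a 95% counting interval, which covers the error of counting reads only. In these data no difference has a replicate check across cultures. No P value is given for the same reason. The paper also reports real-time PCR of genes such as *Ccnb1*, *Cdk1* and *Plk1* in polyploid and diploid cells, which was not used here. Summed counts were 54750203 in CYC065 2N, 62795507 in CYC065 4N, 57877352 in vehicle 2N and 60029050 in vehicle 4N cells.

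Cell identity was read from marker genes in these libraries. All 10 epithelial markers, *Epcam*, *Cdh1* and keratins among them, had fewer than 100 counts in each of the 4 sorted libraries, and the lung lineage regulator *Nkx2-1* had 0. Of the 9 lung lineage markers, 8 stayed under 100 counts, and *Ager*, a marker of alveolar type I cells, had 205 and 279 counts in CYC065 2N and 4N cells and 33 and 22 with vehicle. All 9 mesenchymal and all 6 fibroblast markers passed 100 counts in each of these libraries, with *Col1a1* at 4084 CPM in 2N and 3456 in 4N cells after CYC065, where CPM is the count scaled to library size. Summed fibroblast marker levels were 11730 CPM in 2N and 9471 in 4N cells after CYC065, and 7190 and 6296 in vehicle 2N and 4N cells. Of the 9 leukocyte markers, 8 stayed under 100 counts in both CYC065 libraries, and *Ptprc*, which marks all leukocytes, had 0 and 1. The exception was *Cd68*, a lysosomal glycoprotein, with 1389 and 1280 counts. The 5 endothelial markers stayed under 100 counts and the 3 erythroid markers were at 0 in these libraries. The label of a lung cancer line is thus accompanied by a mesenchymal and not an epithelial marker profile in 2N and 4N cells alike.

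Entry into and passage through mitosis depend on genes that are transcribed in a wave late in the cell cycle. Cyclin B1 with CDK1 triggers entry, Aurora and Polo-like kinases build the spindle, kinesins move its microtubules, kinetochores attach chromosomes, and the anaphase-promoting complex ends the phase by marking cyclin B1 and securin for destruction. Many of these genes share a promoter element, the cell cycle genes homology region (CHR), often near CCAAT boxes, through which the MuvB complex holds them off in quiescent cells and, together with B-Myb and FoxM1, turns them on in G2. Genes of DNA synthesis are mostly driven earlier, by E2F factors.

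Promoters are shown of the 8 mitotic-list genes with the highest 4N/2N ratios among those with whole counts and a RefSeq start within 200 bases of the GENCODE start, because the motifs described further on lie in such windows. Each line gives the 150 bases before the transcription start in the RefSeq annotation of GRCm38.p6, 5′ to 3′ on the strand of the gene. Capitals mark motif letters, read on either strand. The CHR was searched as TTTGAA and, in its other common form, as TTCGAA. The box named CCAAT was searched by these letters. For E2F sites the first string was TTTGGCGC, another one with the same start was TTTCCCGC, and the last one searched in the same windows was TTTCGCGC.
Nusap1, chr2:119618148-119618297, plus strand: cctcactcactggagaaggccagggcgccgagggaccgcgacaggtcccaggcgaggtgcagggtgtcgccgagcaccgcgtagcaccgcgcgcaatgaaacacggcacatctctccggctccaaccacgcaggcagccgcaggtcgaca
Cenpf, chr1:189688087-189688236, minus strand: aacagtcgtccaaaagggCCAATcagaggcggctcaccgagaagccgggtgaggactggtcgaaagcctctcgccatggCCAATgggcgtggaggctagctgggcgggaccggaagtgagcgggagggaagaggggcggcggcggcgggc
Prc1, chr7:80294301-80294450, plus strand: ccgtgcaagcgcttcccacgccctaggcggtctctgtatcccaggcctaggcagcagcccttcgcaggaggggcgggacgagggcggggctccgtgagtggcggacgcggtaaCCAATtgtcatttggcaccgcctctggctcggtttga
Ckap2l, chr2:129297213-129297362, minus strand: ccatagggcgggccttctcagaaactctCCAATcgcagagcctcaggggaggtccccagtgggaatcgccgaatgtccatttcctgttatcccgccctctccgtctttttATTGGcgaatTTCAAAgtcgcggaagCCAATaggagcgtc
Ect2, chr3:27153879-27154028, minus strand: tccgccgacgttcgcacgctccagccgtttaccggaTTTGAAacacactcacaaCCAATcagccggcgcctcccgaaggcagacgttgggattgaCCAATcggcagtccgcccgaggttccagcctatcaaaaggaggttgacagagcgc
Kif18b, chr11:102925125-102925274, minus strand: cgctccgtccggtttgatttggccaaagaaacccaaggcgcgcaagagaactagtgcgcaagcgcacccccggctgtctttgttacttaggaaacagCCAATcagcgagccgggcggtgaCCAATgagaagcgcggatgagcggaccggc
Knl1, chr2:119046969-119047118, plus strand: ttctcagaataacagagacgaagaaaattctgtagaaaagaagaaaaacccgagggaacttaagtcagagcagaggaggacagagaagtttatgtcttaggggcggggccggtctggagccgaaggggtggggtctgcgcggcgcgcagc
Espl1, chr15:102296143-102296292, plus strand: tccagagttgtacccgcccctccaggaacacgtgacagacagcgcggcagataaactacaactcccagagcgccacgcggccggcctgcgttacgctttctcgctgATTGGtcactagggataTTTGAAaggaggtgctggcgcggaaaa
Ckap2l, Ect2 and Espl1 held CHR letters and CCAAT in these 150 bases. Within the same 150 bases, Cenpf, Prc1 and Kif18b held CCAAT alone, and Nusap1 and Knl1 held none of the letters searched. The windows counted further on are longer, reaching further upstream and past the start. In those windows Cenpf, Prc1, Kif18b and Knl1 held CHR letters as well, and Nusap1 still held none of the letters.

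Of 11981 genes with at least 100 summed counts in the higher of both CYC065 libraries, 123 (1.03%) were at least 2-fold higher and 93 (0.776%) at least 2-fold lower in 4N than in 2N cells. Levels are counts relative to library size, with the 4 sorted libraries scaled by the trimmed mean of M values (TMM), and a log2 ratio is the 4N level over the 2N level. Since levels are relative within a library, less RNA per cell and fewer cells cannot be told apart from a lower share. The median log2 ratio was 0.03, and 5% of genes lay below -0.43 and 5% above 0.44. Of the 123 higher genes, 69 belonged to 10 lists of mitotic genes, which took up 203 of the 11981 genes compared, and of the 93 lower genes 0 did. The study chose genes of the CDK1 pathway and kinesins on these same samples, so the direction of those lists is not independent evidence. With vehicle, 47 of 11558 genes (0.407%) were higher and 73 (0.632%) lower in 4N cells by the same rule.

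Among genes with whole counts and at least 300 counts in the higher library, *Nusap1* had the highest 4N/2N ratio. It encodes a microtubule-binding protein of the spindle. Its counts were 537, 590 and 541 in the 3 parts of the 2N library. Those of the 4N library held 2159, 2201 and 2201. The gene was picked by its ratio, and parts of a library are not replicates of a condition. The 4N level was 3.40-fold higher, a log2 ratio of 1.77 (95% counting interval 1.69 to 1.85). The gene spans chr2:119618298-119651244 on the plus strand of mm10.

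The next genes in this order were *Pif1*, a DNA helicase, with a log2 ratio of 1.76 (1.56 to 1.96), and *Aspm*, a spindle pole protein whose loss causes microcephaly, with 1.65 (1.59 to 1.71). *Cenpf*, a kinetochore protein, had 4285 counts in the 2N and 14871 in the 4N library, a 3.00-fold higher level. *Psrc1*, which promotes microtubule polymerization, had a log2 ratio of 1.57 and *Neurl1b*, an E3 ubiquitin ligase of Notch ligands, one of 1.56. With *Nusap1* these were the first 6 of the 12 highest. The other 6 were *Prc1* (1.55), *Parpbp* (1.48), *Arhgap19* (1.47), *Ckap2l* (1.44), *Kif14* (1.43) and *Kif2c* (1.42). *Prc1* bundles the microtubules of the central spindle, and *Kif2c* takes microtubules apart at centromeres. Of the 12 genes, *Pif1*, *Aspm*, *Psrc1*, *Neurl1b*, *Parpbp* and *Arhgap19* stand in none of the gene lists.

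**Figure D1:**
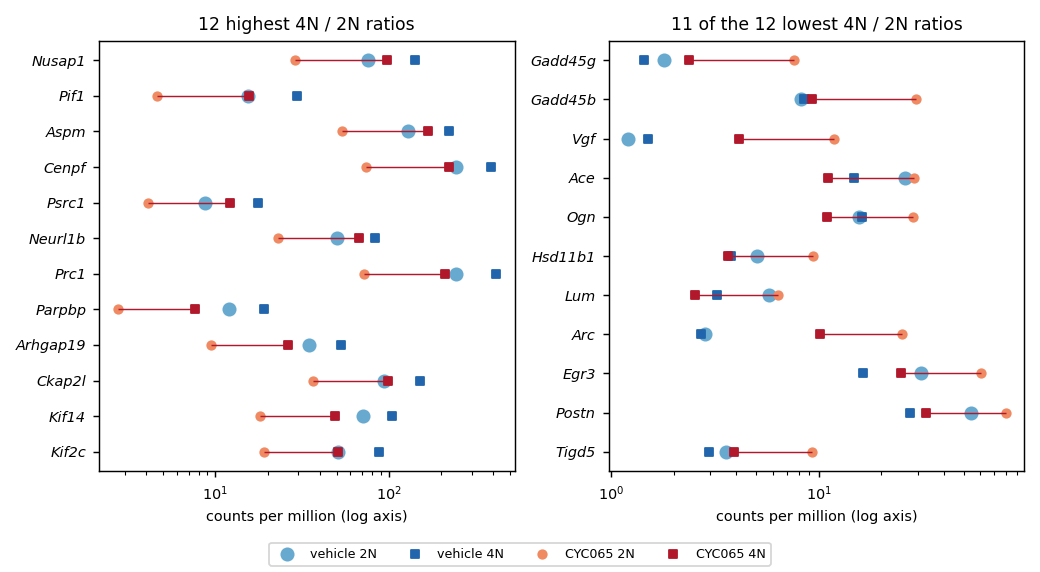
Level in CPM (log axis) of the 12 genes with the highest and 11 of the 12 with the lowest 4N/2N ratio after CYC065 in each of the 4 sorted libraries, 1 library per point, with a line joining CYC065 2N and 4N. On the left, CYC065 2N is the lowest point of each gene; on the right it is the highest.

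In the left panel of the plot of these 23 genes, CYC065 2N was the lowest of the 4 libraries for each gene. For *Nusap1* the levels were 28.8 in CYC065 2N, 98.2 in CYC065 4N, 76.0 in vehicle 2N and 142 in vehicle 4N cells. For *Kif14* they were 18.1, 48.7, 70.9 and 104 in the same order, so that CYC065 4N cells stayed below vehicle 2N cells. Other mitotic genes were ordered in a like way. Among the 69 higher genes of the mitotic lists, the CYC065 2N level was the lowest of the 4 in all 69, and the CYC065 4N level was below vehicle 4N in all 69 and below vehicle 2N in 46. The CYC065 2N counts also chose these 69 genes. Over all 203 members compared, with no cut on ratio, CYC065 2N was the lowest of the 4 libraries for 178. CYC065 4N was below vehicle 4N for 181. CYC065 4N was also below vehicle 4N for 56 of 57 DNA synthesis genes and 76 of 76 ribosomal protein genes, and for 8 of 27 immediate early genes. CYC065 2N was the lowest for 51 of those 57, for 7 of those 76 and for 0 of those 27. These orders are thus not particular to mitotic genes. The lists were set with earlier results of these data known, and the same shares over all genes are not given.

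Among genes of mitotic entry, 11 of 21 compared were at least 2-fold higher in 4N cells, 0 were lower, and the median log2 ratio was 1.03. *Cdk1*, the kinase that drives entry, had 969, 894 and 940 counts in the parts of the 2N library and 2200, 2241 and 2223 in those of the 4N library. That is a 2.06-fold higher level in 4N cells, from 48.4 to 99.7 CPM, against 146 and 216 with vehicle. Its partner *Ccnb1*, cyclin B1, had the highest ratio of the list at 1.51 (1.44 to 1.58), with fractional counts, which makes it uncertain. *Ccna2*, cyclin A2, was 2.17-fold higher, *Aurka*, which matures centrosomes, 2.42-fold, and *Cdc25c*, a phosphatase that activates CDK1, 2.11-fold. *Plk1*, another kinase of entry with some fractional counts, was 2.52-fold higher. *Ccnb2*, cyclin B2, stood apart with a ratio of 0.82 after CYC065 and 0.89 with vehicle, and with a CYC065 2N level of 17.1 CPM that was above the 13.8 of vehicle 2N cells. *Wee1*, which holds CDK1 inactive, had a ratio of 0.74. *Cdc25a*, whose product acts from G1/S on, was lowest in the list at -0.11.

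All 14 mitotic kinesins compared had ratios above 0, and 13 of them were at least 2-fold higher in 4N cells, with a median log2 ratio of 1.21. *Kif11*, which slides spindle microtubules apart, had 769, 773 and 829 counts in the 2N parts and 2301, 2264 and 2284 in the 4N parts, a 2.50-fold higher level. *Kif20a*, needed for cytokinesis, was 2.06-fold higher. The member under 2-fold was *Kif24*, a kinesin of cilia and centrioles, at 0.52 (0.28 to 0.76). By contrast, the 22 genes compared in the list of transport kinesins and light chains, not all of them cargo motors, had a median of 0.06. In either direction 0 of them passed 2-fold, near the shares over all genes of 1.03% higher and 0.776% lower. Among these, *Kif5b*, the widely used transport motor, had 0.16 and *Klc3*, a light chain, the lowest value at -0.39. Summed over the list, mitotic kinesins had 424 CPM in CYC065 2N, 973 in CYC065 4N, 1167 in vehicle 2N and 1717 in vehicle 4N cells.

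The chromosomal passenger complex corrects faulty attachments between chromosomes and spindle. Of its 8 genes and shugoshins compared, 7 were at least 2-fold higher in 4N cells, with a median log2 ratio of 1.10. *Aurkb*, its kinase, was 2.41-fold higher, its scaffold *Incenp* 2.15-fold and *Birc5*, survivin, 2.05-fold. *Haspin*, the kinase that places the complex on centromeres, was lowest at 0.72. Kinetochore and centromere genes had ratios above 0 in 37 of 37, and 12 passed 2-fold. *Cenpf* led them, followed by *Knl1* (1.36) and *Ndc80* (1.30), which form the contact with microtubules, while *Zwint* at 0.10 and *Cenpk* at 0.11 were lowest. *Cenpa*, the histone that marks centromeres, was 2.30-fold higher. Of 8 spindle checkpoint genes, *Bub1b* passed 2-fold at 1.24 (1.19 to 1.30), with *Bub1* at 1.00 and *Ttk* at 0.99 beside the threshold.

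**Figure D2:**
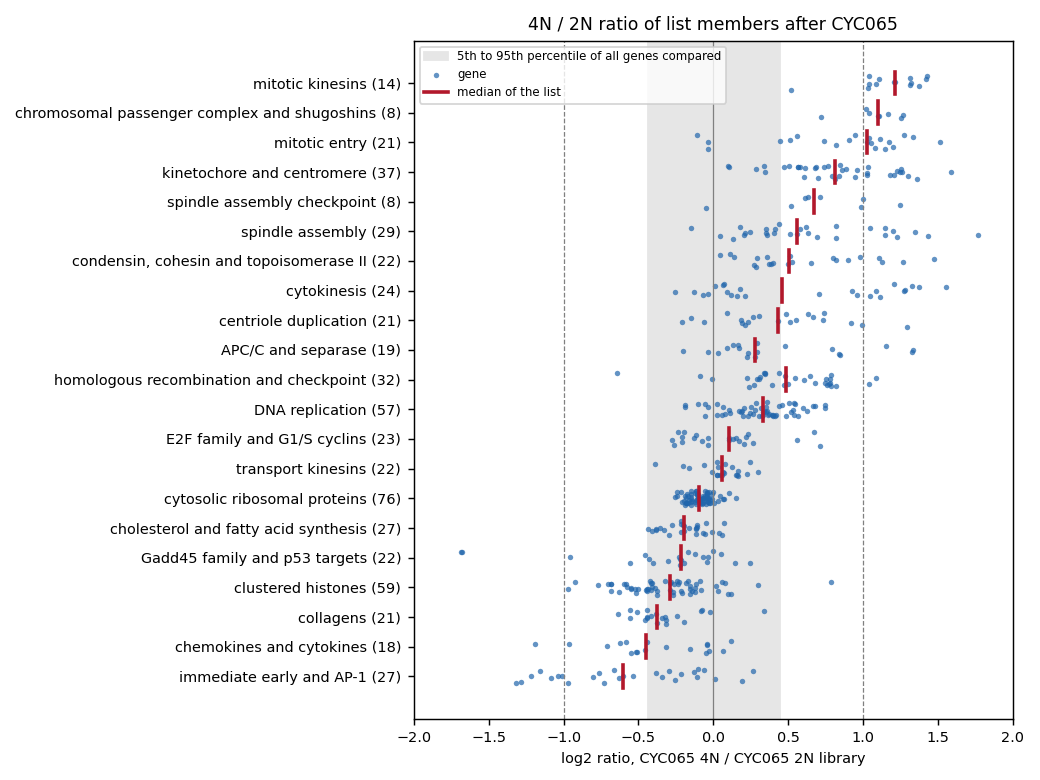
Log2 ratio of CYC065 4N over CYC065 2N for the genes compared in 21 lists (number of genes in brackets). Points are genes, red bars are list medians, the grey band spans the 5th to the 95th percentile of all genes compared (-0.43 to 0.44) and dashed lines mark 2-fold. Medians run from 1.21 for mitotic kinesins to -0.61 for immediate early genes.

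The remaining mitotic lists had wider spreads, as the plot of list members by 4N/2N ratio shows. Among 29 spindle assembly genes, 8 passed 2-fold, from *Nusap1* at 1.77 to *Ckap2* at 1.05, while subunits of the augmin complex ran from 0.82 for *Haus5*, with some fractional counts, down to -0.15 for *Haus2*. Among 24 cytokinesis genes, 9 were higher, led by *Prc1* and by *Ect2*, the activator of RhoA at the cell equator, which was 2.59-fold higher. Septins, nonmuscle myosins and membrane scission factors of the same list lay near 0, with *Sept9* lowest at -0.26. The median of this list was 0.46, and it was 1.07 without its genes of fractional counts.

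*Top2a*, the topoisomerase that untangles chromosomes in mitosis, was the most abundant of the higher mitotic genes, with 257 CPM in 2N and 713 in 4N cells after CYC065, a ratio of 1.48 with some fractional counts. Its paralog *Top2b*, which is not tied to the cycle, had 0.05. The condensin subunits *Ncaph* (1.13) and *Ncapg* (1.11) passed 2-fold, and the cohesin subunits *Smc3* (0.11) and *Stag2* (0.14) did not. Of 21 centriole duplication genes, *Nek2*, which splits centrosomes, was the single member past 2-fold, at 2.46-fold higher. *Plk4*, the kinase that starts centriole copying, had 0.74 with some fractional counts and *Ccp110*, whose product caps centrioles and is a CDK2 target, had 0.26 (0.17 to 0.36). Among 19 genes of the anaphase-promoting complex and separase, *Espl1* (separase), *Ube2c* and *Cdc20* were 2.52-fold, 2.51-fold and 2.22-fold higher. The core subunits of the complex ran from 0.29 for *Cdc27* and *Anapc11* to -0.20 for *Cdc26*.

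Across the 10 mitotic lists, then, 189 of 203 genes had ratios above 0, where 55.7% of all genes compared did, and 69 (34.0%) were at least 2-fold higher against 1.03% of all genes. The median log2 ratio of the 203 genes was 0.71 after CYC065 and 0.28 with vehicle. With vehicle, 0 of them passed 2-fold in either direction. Genes of regulators of this program were less far apart between 4N and 2N cells. *Foxm1* had 0.87 (0.81 to 0.94) with some fractional counts, *Lin9* and *Lin54* of MuvB had 0.65 and 0.57, and *Mybl2*, B-Myb, had 0.40 with some fractional counts. Of the 11 genes of this list 0 passed 2-fold, near the shares over all genes of 1.03% higher and 0.776% lower. *Mxd3*, a Myc antagonist expressed late in the cycle, was the 1 gene of the Myc network past 2-fold, at 2.09-fold higher, beside *Myc* itself at 0.07.

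Of the 123 higher genes, 105 were protein-coding and 25 had fractional counts. Pseudogenes of ribosomal proteins such as *Rpl35a-ps4* head the unfiltered order with 13.2 counts in the 2N and 291 in the 4N library, and their reads cannot be placed with certainty. *Rpl35a-ps2*, *Rpl35a-ps3* and *Rpl35a-ps6* held the same counts, yet each stands as a separate gene among the 123. On the lower side, the small nuclear RNA genes *Gm24950*, *Gm23849* and *Rnu2-10* likewise held equal counts and were counted singly. Higher genes with whole counts outside the lists, named here after their values were seen, include *Prr11* (1.35) and *Troap* (1.26), both linked to mitosis, *Gas2l3* (1.18), a crosslinker of actin and microtubules, and *Neil3* (1.30), a DNA glycosylase. *Polq*, the polymerase of theta-mediated end joining, had 1.05 after CYC065 and 0.06 with vehicle.

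Motif letters were then counted in promoter windows from 250 bases before to 50 after the start, for 7286 of the genes compared that have a RefSeq start within 200 bases of the GENCODE start. CHR letters were in 53 of 73 windows of genes higher in 4N cells (72.6%), in 2 of 31 windows of lower genes (6.45%) and in 971 of all 7286 windows (13.3%). Among the 53, the letters began within 50 bases of the start in 43. The higher genes outside the mitotic lists held them in 15 of 22 windows (68.2%). Within the mitotic lists, CHR letters were in 38 of 51 windows (74.5%) of genes past 2-fold and in 33 of 91 (36.3%) of genes under 2-fold.

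The other letters were spread differently. CCAAT on either strand was in 72.5% of windows of the higher mitotic genes, in 66.7% of the DNA synthesis genes and in 41.0% of all windows, and CHR together with CCAAT was in 60.8%, 9.52% and 6.05%. E2F letters were in 14 of 42 windows of DNA synthesis genes (33.3%), in 9.80% of the higher mitotic genes and in 4.05% of all windows. An end base can belong to a CHR and a CCAAT string at once. A match is a string of letters and not a bound site, and genes higher in 4N cells were chosen by ratio, so these shares are a description.

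**Figure D3:**
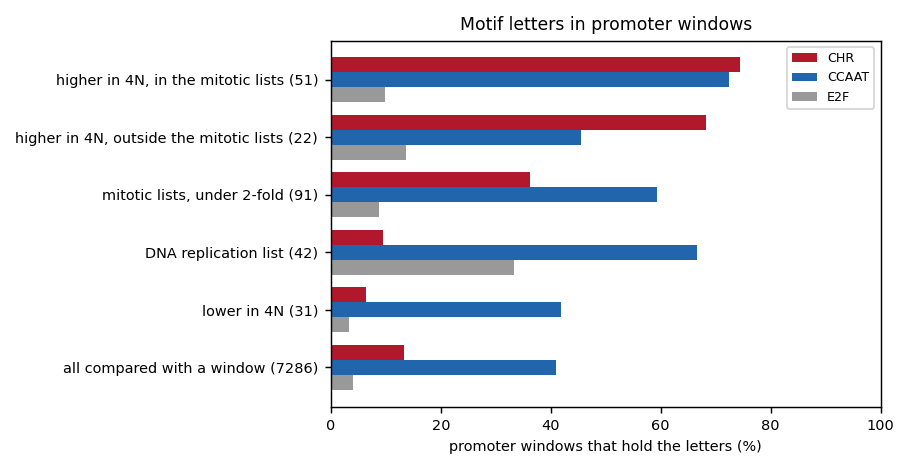
Share of promoter windows (in percent, number of windows in brackets) that hold CHR, CCAAT or E2F letters, by gene set. CHR letters are in 74.5% of windows of mitotic genes past 2-fold and 13.3% of all windows, and E2F letters are most frequent in the DNA replication list, at 33.3%.

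Genes of DNA synthesis were higher in 4N cells by less. Of 57 compared, 51 had ratios above 0, where 55.7% of all genes compared did, and the median was 0.33. With vehicle the median was -0.07 and 16 ratios were above 0. After CYC065, 0 passed 2-fold, near the shares over all genes of 1.03% higher and 0.776% lower. *Ticrr*, which fires origins, was highest at 0.75 (0.63 to 0.86), followed by *Dscc1* (0.75) and *Gins3* (0.68). The helicase subunit *Mcm2* had 0.06, *Pcna*, the sliding clamp, -0.05 with fractional counts, and the licensing factor *Cdc6* -0.19. In level, CYC065 4N cells stayed below vehicle 2N cells for 56 of the 57 genes. They did so too for 76 of 76 ribosomal protein genes and for 12 of 27 immediate early genes. The summed level of DNA synthesis genes was 2471 CPM in CYC065 2N, 2996 in CYC065 4N, 6959 in vehicle 2N and 6478 in vehicle 4N cells.

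Homologous recombination and checkpoint genes had a median ratio of 0.49, with 29 of 32 above 0. *Bard1*, the partner of BRCA1, had 483, 418 and 450 counts in the 2N parts and 1110, 1114 and 1091 in the 4N parts, a log2 ratio of 1.09 (1.00 to 1.18) against -0.03 (-0.11 to 0.04) with vehicle. *Fancd2*, the central protein of crosslink repair, was 2.05-fold higher and had 0.19 with vehicle, and *Brca1* had 0.79 and -0.07. *Xrcc3* was the member lowest in the list at -0.64. Among E2F factors and G1/S regulators 0 of 23 passed 2-fold, near the shares over all genes of 1.03% higher and 0.776% lower. The repressors *E2f7* (0.67) and *E2f8* (0.56) and the pocket protein gene *Rbl1* (0.71) lay above 0, *E2f1* (-0.21), *Ccne1* (-0.21) and *Ccnd1* (-0.28) below.

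Clustered histone genes, transcribed in S phase for packaging new DNA, had a median ratio of -0.29 after CYC065 and -0.96 with vehicle. With CYC065, 51 of 59 lay below 0, and 0 passed 2-fold, near the shares over all genes of 1.03% higher and 0.776% lower. With vehicle, 27 were at least 2-fold lower in 4N cells, against 0.632% of all genes. The counts of 54 of the 59 were fractional, since their coding sequences are alike, and are uncertain. *Hist1h1b*, a linker histone with whole counts, had 589 counts in the 2N and 576 in the 4N library, a ratio of -0.24 (-0.41 to -0.07), against -1.01 (-1.13 to -0.90) with vehicle. Its level was 10.2 CPM in CYC065 2N, 8.62 in CYC065 4N, 33.7 in vehicle 2N and 16.7 in vehicle 4N cells, so the gap between 2N and 4N was wide with vehicle and narrow at the lower levels after CYC065.

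**Figure D4:**
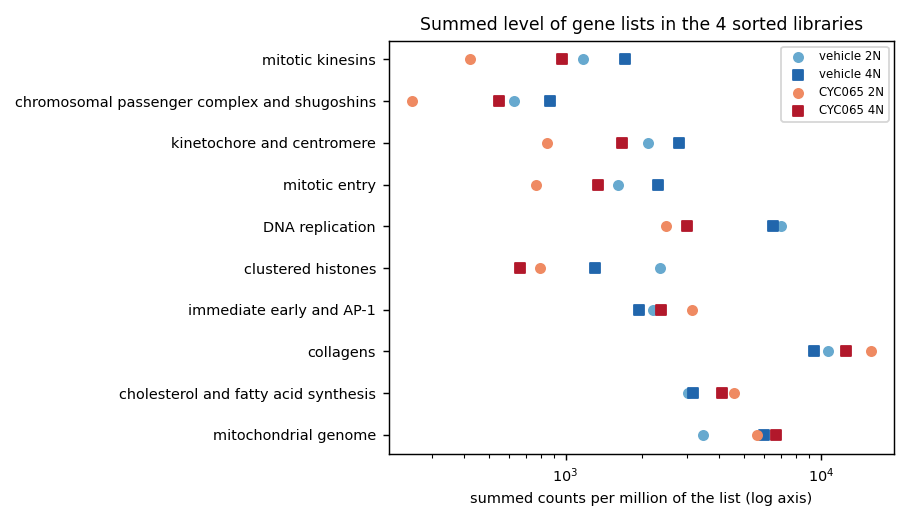
Summed level of 10 gene lists in the 4 sorted libraries, in CPM on a log axis, 1 library per point. For the 4 mitotic lists at the top, CYC065 2N is lowest and CYC065 4N lies below vehicle 2N; for immediate early genes, collagens and cholesterol synthesis, CYC065 2N is highest.

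On the lower side, the genes with the lowest ratios included *Gadd45g*, *Gadd45b*, *Vgf*, *Ace*, *Ogn*, *Hsd11b1*, *Lum*, *Arc*, *Egr3*, *Postn* and *Tigd5*. *Gadd45b*, a stress-induced gene whose protein binds MAP kinase kinases, had 586, 568 and 554 counts in the parts of the 2N library and 208, 204 and 205 in those of the 4N library. The 2N level was 3.20-fold higher than the 4N level, a log2 ratio of -1.68 (-1.81 to -1.54). Its paralog *Gadd45g* was 3.22-fold higher in 2N cells, and *Gadd45a* had -0.22 (-0.32 to -0.12). For *Gadd45b* the levels were 29.5 CPM in CYC065 2N against 9.23, 8.16 and 8.46 in CYC065 4N, vehicle 2N and vehicle 4N cells, so that CYC065 2N cells stood alone.

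Several of these genes code for secreted or matrix proteins. *Ogn* and *Lum*, small leucine-rich proteoglycans, had -1.37 and -1.32, and *Postn*, periostin, had -1.27 at the highest level of the 11 named, 79.4 CPM in 2N and 33.0 in 4N cells after CYC065. *Vgf*, a secreted neuropeptide precursor, had -1.53, *Ace*, angiotensin-converting enzyme, -1.38, and *Hsd11b1*, which reactivates glucocorticoids, -1.36. For each of these 11 genes, CYC065 2N was the highest of the 4 libraries. That holds for 83 of the 93 genes lower in 4N cells as well, which the CYC065 2N counts also chose.

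Immediate early and AP-1 genes, which respond within minutes to growth factors and stress, were the list with the lowest median, -0.61 after CYC065 and -0.18 with vehicle. Of 27 compared, 24 lay below 0 and 7 (25.9%, against 0.776% of all genes) were at least 2-fold lower in 4N cells. These 7 were *Arc*, *Egr3*, *Egr2*, *Egr1*, *Nr4a1*, *Fos* and *Fosb*. *Egr1*, the most abundant of the 7, had 5534, 5733 and 5706 counts in the 2N parts and 2970, 2913 and 2923 in the 4N parts, a 2.23-fold higher level in 2N cells. *Nr4a1*, an orphan nuclear receptor, was 2.12-fold and *Fos* 2.06-fold higher in 2N cells. *Jun* had -0.54, and *Nr4a2* at 0.26 and *Fosl2* at 0.19 were highest.

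In level, 19 of the 27 immediate early genes were highest in CYC065 2N cells of the 4 sorted libraries. So were 21 of 27 cholesterol and fatty acid synthesis genes and 14 of 21 collagens, and 0 of 76 ribosomal protein genes. The same share over all genes is not given. *Fos* had 105 CPM in CYC065 2N, 51.1 in CYC065 4N, 19.1 in vehicle 2N and 9.72 in vehicle 4N cells, so the 4N/2N ratio was alike in both treatments, at -1.04 (-1.10 to -0.98) and -0.98 (-1.13 to -0.83), on levels several times apart. *Egr2* likewise had -1.22 and -1.28. *Arc*, which in neurons follows synaptic activity, differed from these with -1.32 after CYC065 and -0.05 (-0.38 to 0.28) with vehicle.

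Genes of arrest and p53 response lay mostly below 0, with 18 of 22 and a median of -0.22. Besides the Gadd45 pair, *Btg2*, an antiproliferative p53 target, came near 2-fold with -0.96 (-1.02 to -0.89), and *Cdkn1a*, which encodes p21, had -0.55 (-0.67 to -0.43). *Mdm2* and *Ccng1*, targets of p53 as well, had -0.04 and -0.07, and *Trp53* itself, with some fractional counts, had 0.00. Of the INK4 family, *Cdkn2c* had 0.78 (0.71 to 0.86), against -0.09 for *Cdkn2a* and -0.38 for *Cdkn2b*.

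Chemokines and cytokines had 16 of 18 ratios below 0 and a median of -0.45. *Ccl7*, a monocyte attractant, was 2.28-fold higher in 2N cells, and *Ccl2*, its neighbour in function, had 1110 and 658 counts and a ratio of -0.96 (-1.10 to -0.82), against 0.19 (0.10 to 0.29) with vehicle. *Ereg*, an EGF receptor ligand, was highest at 0.12. Among collagens, 20 of 21 lay below 0 with a median of -0.38. Past 2-fold were 0, near the shares over all genes of 1.03% higher and 0.776% lower. *Col3a1*, with some fractional counts, was lowest at -0.63, and *Col1a1* had -0.24 (-0.25 to -0.23) and -0.29 with vehicle. Fibroblast markers moved in the same direction as these genes, with *Pdgfrb* at 382 CPM in 2N and 252 in 4N cells after CYC065, and their part in the result was not tested.

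Genes of cholesterol and fatty acid synthesis had 24 of 27 ratios below 0 after CYC065 and 23 above 0 with vehicle, with medians of -0.20 and 0.27. Without its genes of fractional counts, the median after CYC065 was -0.12. *Hmgcs1*, an early enzyme of the pathway, had -0.38 (-0.43 to -0.34) and 0.45 (0.36 to 0.54). In this list 0 genes passed 2-fold after CYC065, near the shares over all genes of 1.03% higher and 0.776% lower. The *Hmgcs1* level in CYC065 2N cells, 149 CPM, was above the 114 of CYC065 4N, the 33.0 of vehicle 2N and the 45.1 of vehicle 4N cells. Contractile genes under SRF had a median of -0.04 after CYC065 (-0.01 without genes of fractional counts) and 0.23 with vehicle, with *Actg2*, a smooth muscle actin, at -0.69 (-0.89 to -0.49) and 1.30 (1.14 to 1.45).

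Ribosomal protein genes lay slightly below 0, with 69 of 76 and a median of -0.10, and Zfp zinc finger genes slightly above, with 228 of 298 and a median of 0.11. Both shifts are small beside 2-fold, and most ribosomal protein genes had fractional counts. Mitochondrial genome transcripts had a median of 0.23 after CYC065 and 0.64 with vehicle, with *mt-Nd1*, a complex I subunit with whole counts, at 0.35 and 0.64. How unsure fractional counts are is seen in *mt-Atp6*, whose 3 parts of the CYC065 2N library had 1940, 1327 and 391 counts. Of the nuclear noncoding RNAs with whole counts, *Neat1*, the scaffold of paraspeckles, had 0.71 and *Malat1* 0.49, against -0.36 and -0.24 with vehicle. *Neat1* was at 2458 CPM in 2N and 4024 in 4N cells after CYC065, and at 227 and 177 in the vehicle libraries.

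The gene that encodes CDK9, a target of CYC065, had a ratio of -0.36 (-0.42 to -0.30), and *Hexim1*, which holds the CDK9 complex P-TEFb inactive, had -0.75 (-0.82 to -0.69). *Cdk2*, the other target, had 0.17. Of the 16 genes of P-TEFb and other transcription kinases, 0 passed 2-fold and the median was 0.08. *Mcl1*, a short-lived survival factor of the BCL2 family, had -0.26 (-0.30 to -0.22), and 0 of 22 BCL2 family and caspase genes passed 2-fold. Both of these counts of 0 are near the shares over all genes of 1.03% higher and 0.776% lower.

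The vehicle libraries give the 4N/2N ratio that the same gates yield without the drug. Across 9941 genes with whole counts in the CYC065 libraries and counts in all 4, the ratios of both treatments had a Pearson r of 0.27 and a Spearman rho of 0.20, which describe genes within 4 libraries and not replicates. Without the 10 mitotic lists, r was 0.22 over 9766 genes. Of the 123 higher genes, 109 (88.6%) had a ratio above 0 with vehicle, against 53% of all genes compared. Past 2-fold there as well were 7. Of these 7, *Psrc1* and *Usp2* had whole counts, and the others were pseudogenes with fractional counts. Of the 93 lower genes, 70 (75.3%) had a ratio below 0 with vehicle, against 47% of all genes compared, and 4 were past 2-fold. Over all genes compared, 0.609% were past 2-fold with vehicle in the direction of their ratio after CYC065.

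**Figure D5:**
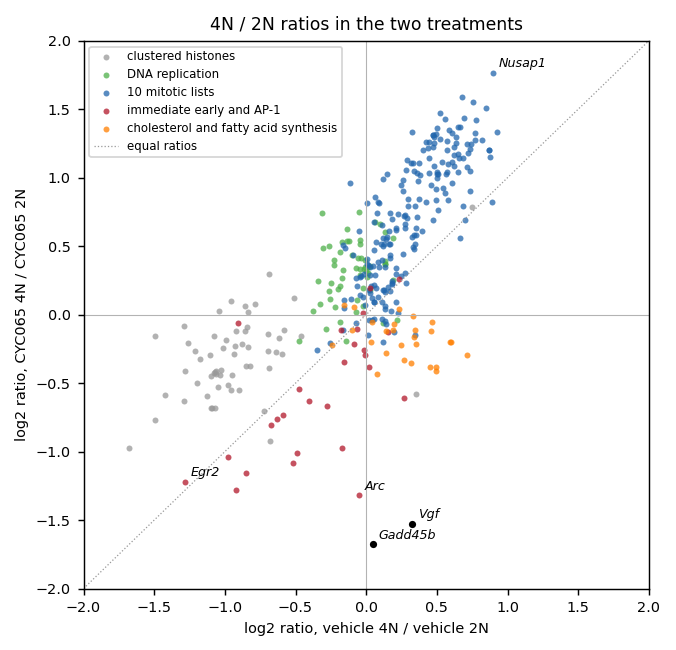
Log2 ratio of 4N over 2N after CYC065 (vertical axis) against the same ratio with vehicle (horizontal axis) for the genes of 5 sets of lists, 1 point per gene. Of the 203 mitotic genes, 183 lie above the dotted line of equal ratios and 189 above 0 on the vertical axis, most clustered histones lie left of 0, and Gadd45b and Vgf lie low on the right of 0.

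The difference of both log2 ratios was taken as CYC065 minus vehicle. It was at least 1 for 71 of 11329 genes (0.627%) and -1 or less for 84 (0.741%). Among the 203 mitotic genes, 183 had a difference above 0, with a median of 0.41 against 0.02 over all genes, and 2 reached 1. One was *Espl1*, with 1.34 after CYC065, 0.33 with vehicle and a difference of 1.01 (0.94 to 1.08). The other was *Nsl1*, a kinetochore protein of the Mis12 complex, with 0.96, -0.11 and a difference of 1.07 (0.89 to 1.25). Mitotic kinesins had a median difference of 0.70, the chromosomal passenger complex and shugoshins 0.62, clustered histones 0.65, DNA synthesis genes 0.39 and cholesterol synthesis genes -0.46. For *Cdk1* the difference was 0.47 (0.39 to 0.55), and for *Ccnb2* it was -0.07 (-0.24 to 0.10). *Bard1* had a difference of 1.12 (1.00 to 1.24).

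On the lower side, *Gadd45b* had a ratio of 0.05 (-0.14 to 0.24) with vehicle and a difference of -1.73 (-1.96 to -1.50). *Vgf* had 0.33 (-0.16 to 0.81) and a difference of -1.85, and *Ogn* had 0.04 (-0.10 to 0.18) and -1.41. In contrast *Postn*, with -0.98 with vehicle, differed by -0.29 (-0.40 to -0.17), so that it was lower in 4N cells of both treatments. The spread between cultures lies outside these intervals, and the genes with the lowest ratios after CYC065 were chosen on 1 of the ratios that enter the difference.

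Outside the mitotic lists, genes higher in 4N cells numbered at most 6 on a chromosome, of 613 compared on chromosome 17. Lower genes numbered at most 12, of 963 compared on chromosome 11, which held the most genes. The median log2 ratio per chromosome ran from -0.004 on chromosome 4 to 0.065 on chromosome 5. With vehicle it ran from -0.10 on chromosome 19 to 0.09 on chromosome 12. Ratios rose slightly with the length of exons, from a median of -0.02 in the shortest to 0.06 in the longest of 5 classes of protein-coding genes, and fell from 0.04 to -0.02 with vehicle. These shifts are small beside the ratios of the genes named above.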

How the data were processed

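Total RNA with ribosomal RNA depleted was sequenced as paired-end, stranded libraries. Per the labels, reads were handled with bcl2fastq 2.17 and Cutadapt 1.18, aligned to mm10 with STAR 2.7.0f and quantified with RSEM 1.3.1. Values deposited by the authors are expected counts per gene, which are not whole where RSEM divided reads among genes, for 55450 gene rows. Whether strand was used in counting is not given in the sources used here, so overlapping and antisense genes cannot be told apart with certainty.

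The 3 columns of each library were summed unrounded, in Python 3.11.15 with SciPy 1.17.1 and pandas 2.3.3, because they differed by no more than sampling noise over genes with whole counts. Genes with fractional counts varied more between columns and are named as uncertain. Library sizes of the 4 sorted libraries were scaled by TMM in edgeR 4.0.16 (R 4.3.3). A gene was compared where the higher library held at least 100 counts, and was called higher or lower at a 2-fold ratio. Intervals are exact conditional binomial intervals at 95%, and for differences of ratios delta-method intervals. All of them cover counting error only, and reads without molecular identifiers are not independent molecules. The method was run on counts simulated from the CYC065 2N profile with counting error only. That run held no spread between cultures and no divided reads, so it cannot speak to either. DESeq2 1.42.0 and edgeR's quasi-likelihood test were run on rounded counts of the columns as alternatives.

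Named genes were the 12 highest and 12 lowest ratios among genes with whole counts and at least 300 counts in the higher library, plus members of 44 gene lists and 7 marker lists. Of the 12 lowest, 1 is not reported here. Members, lists and rules were chosen with earlier results of these data known. With 1 library per group, the unsorted libraries left out, no test of conditions was made.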

Additional observations from a re-analysis of the deposited data

How the results depend on the processing

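Counts of genes past 2-fold depended most on the minimum count and hardly on the scaling. In the order higher and lower after CYC065, higher and lower with vehicle, and difference of ratios at least 1 and at most -1, the reported counts were 123, 93, 47, 73, 71 and 84. They were 229, 288, 136, 227, 300 and 221 at a minimum of 30 counts and 2595, 3273, 1939, 2540, 2229 and 2407 with no minimum. At a minimum of 300 counts they were 96, 37, 22, 36, 19 and 37. With the 95% counting interval wholly beyond 1 they were 75, 36, 19, 25, 17 and 21, and without genes of fractional counts those lower with vehicle numbered 30. Leaving out 1 column in turn gave 123 to 131, 87 to 103, 47 to 52, 69 to 84, 79 to 88 and 80 to 93, which shows only how steady the parts of a library are. Under edgeR the replicate block gave 113, 91, 40, 68, 62 and 77, and no block gave 112, 92, 40, 68, 60 and 75. DESeq2 gave 102, 93, 40, 64, 54 and 74. Those tests compare parts of libraries, not conditions, and a part number pairs nothing. Of the 12 genes with the highest ratios and the 11 named with the lowest, none changed direction under the other scalings, the prior count of 2, the removal of the length trend or the loss of 1 column. These genes were picked for ratios far from 0, and the columns are parts of 1 library, so that outcome was set by the choice and checks nothing. Other list members were not rerun one by one. The median of abundant noncoding RNAs went from -0.05 to 0.38 without genes of fractional counts, and list medians next to 0 (stress response, Myc network, BCL2 family, respiratory chain, Hippo pathway) crossed it in some settings. A removal of the trend over exon length, chosen after seeing the data, gave *Aspm* 1.59, *Cenpf* 1.51 and *Prc1* 1.495, each below its counting interval, and medians of -0.43 for collagens, -0.07 for contractile genes and -0.02 for abundant noncoding RNAs. Depth leaves low genes open, since 56 of the 93 lower genes had under 300 counts.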
